A study of Homo sapiens with 12 samples.

Results

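Fibrillar collagens and type VI collagen were followed as a set of 9 genes chosen by symbol: the fibrillar chains COL1A1, COL1A2, COL3A1, COL5A1, COL5A2 and COL11A1, and the type VI chains COL6A1, COL6A2 and COL6A3. Of these, 8 had transcripts in the count table and all 8 passed the filter on low counts, among 24559 gene symbols in the table and 16538 tested. COL11A1 matched no transcript and is not analysed here. The RNA came from polysomes, the fraction of a cell extract in which an mRNA carries several ribosomes, and 12 libraries were made from it, with 2 libraries in each of 6 groups. The cells were 3 human triple-negative breast cancer cell lines, that is, lines from tumours without oestrogen receptor, progesterone receptor or HER2 amplification. MDA-MB-231 and SUM159 each had a control labelled as empty vector (EV) and a knockdown of TRMT112 (KD), made by transfection of a lentiviral short hairpin RNA construct and puromycin selection. The methods name a non-silencing hairpin as the control of the knockdown, where the labels name an empty vector. BT549 had its own EV and an overexpression of TRMT112 (OE) from an open reading frame clone, with G418 selection. TRMT112 is the activating partner of several RNA and protein methyltransferases, including the 18S rRNA methyltransferase BUD23. All cells were treated with cycloheximide, which halts elongating ribosomes, before the gradient. All groups are drug-selected cultures, and the sources used here do not say whether the 2 libraries of a group came from separate cultures, so that p-values measure the spread between these libraries, which may be technical. No libraries of total RNA were analysed here, so more mRNA in the cell and more ribosomes on each mRNA cannot be told apart in any value below.

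Collagens are secreted triple helices. Type I collagen is built from COL1A1 and COL1A2 chains and is the main fibril of bone, tendon and tumour stroma, type III is a homotrimer of COL3A1, and type V, from COL5A1 and COL5A2, starts fibrils and limits their width. Type VI collagen combines COL6A1 and COL6A2 with COL6A3 or a related long chain into beaded microfilaments around cells. The chains are hydroxylated and folded in the endoplasmic reticulum, trimmed by propeptide proteinases outside the cell and cross-linked by lysyl oxidases. The genes lie apart in the genome except for a few neighbours (GRCh38, GENCODE 44): COL3A1 at chr2:188974373-189012746 on the plus strand and COL5A2 at chr2:189031898-189225312 on the minus strand point towards each other, and COL6A1 (chr21:45981770-46005050) and COL6A2 (chr21:46098112-46132848) lie on the plus strand of the same chromosome arm. COL6A3 is also on chromosome 2, COL1A1 on 17, COL1A2 on 7 and COL5A1 on 9. In breast tumours most fibrillar collagen is made by stromal fibroblasts, while carcinoma lines with mesenchymal traits also make some.

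The libraries held between 22954226 and 27434677 expected counts, and between 99.25 and 99.41% of these were matched to annotated transcripts. TRMT112 followed the labels in every library: its normalized counts were 4147 and 3938 in MDA-MB-231 EV against 1764 and 1682 in KD, 6332 and 6566 in SUM159 EV against 3909 and 3699 in KD, and 3076 and 3087 in BT549 EV against 4286 and 4319 in OE. A normalized count is a count scaled to a common library size with TMM factors. The labelled cell type was checked with marker lists: the 4 markers of mesenchymal-like lines (VIM, ZEB1, CDH2, AXL) summed to between 26034 and 102117 normalized counts in every group, although CDH2 was near 0 in MDA-MB-231 EV (1.83 and 3.76). PGR was at 0 in 5 of the groups and at 3.28 and 9.97 in BT549 EV, ERBB2 lay between 1385 and 3420 in all libraries, and ESR1 is not analysed here.

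In the control polysomes the lines differed in both the amount and the kind of collagen mRNA listed. Only transcripts with an estimate above 0 in a BT549 library are listed, so the sums below leave out any found in the other lines alone. Per transcript length, in TPM (transcript abundance divided by length and scaled to a fixed sum), the 8 genes summed to 56.7 and 58.4 in MDA-MB-231 EV, 130 and 129 in BT549 EV, and 287 and 290 in SUM159 EV. MDA-MB-231 carried mostly type VI collagen, with COL6A2 giving 69.8 and 72.1% of the summed TPM. BT549 EV carried mostly fibrillar collagen, with COL1A2 giving 49.4 and 49.1%. In SUM159 EV the fibrillar chains at 145 and 143 TPM and the type VI chains at 143 and 148 TPM were level, and COL1A1 was the most abundant gene with 37.8 and 37.0%.

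The most uneven of the members between lines was COL1A2, the second chain of type I collagen. Its normalized counts were 1.88 and 0.913 in MDA-MB-231 EV, 8.07 and 15.1 in SUM159 EV, and 4965 and 4885 in BT549 EV. SUM159 thus carried 7420 and 7476 normalized counts of COL1A1 with almost no COL1A2. Of the 11 transcripts of COL1A2 in the table, 3 hold missing values, which were read as 0. COL1A2 was higher in BT549 EV than in SUM159 EV by 8.72 on the log2 scale (SE 0.09, adjusted p = 1.27e-26, edgeR quasi-likelihood test with Benjamini-Hochberg adjustment, as for every adjusted p below). Against the 3 counts of MDA-MB-231 EV, BT549 EV was higher by a ratio of 3540 with an exact 95% counting interval from 1210 to 17200. COL3A1 had 315 and 288 normalized counts in SUM159 EV and 31.8 and 16.6 in BT549 EV, and 1 count in all in MDA-MB-231 EV. COL6A3 ranged from 7.53 and 7.31 normalized counts in MDA-MB-231 EV through 219 and 246 in BT549 EV to 1088 and 1171 in SUM159 EV. COL6A2 ran the other way in BT549, with 214 and 219 normalized counts against 1559 and 1646 in MDA-MB-231 EV and 4085 and 4164 in SUM159 EV.

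All 8 members were higher in SUM159 EV than in MDA-MB-231 EV, where 39.2% of all tested genes were called higher and 36.4% lower. Between BT549 EV and MDA-MB-231 EV, 7 members were higher and COL6A2 was lower, beside 39.1 and 40.4% of all genes. Between BT549 EV and SUM159 EV, COL1A2 and COL5A2 were higher and the other 6 lower, beside 37.7 and 40.7%. These comparisons share control libraries, and transcripts without an estimate above 0 in BT549 are missing from them. BT549 carried another vector than the other lines, so line and vector cannot be told apart there. According to the methods each line also grew in its own medium, that of SUM159 with insulin and hydrocortisone and that of BT549 on an RPMI base. Line and medium thus cannot be told apart in any of these comparisons.

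**Figure D1:**
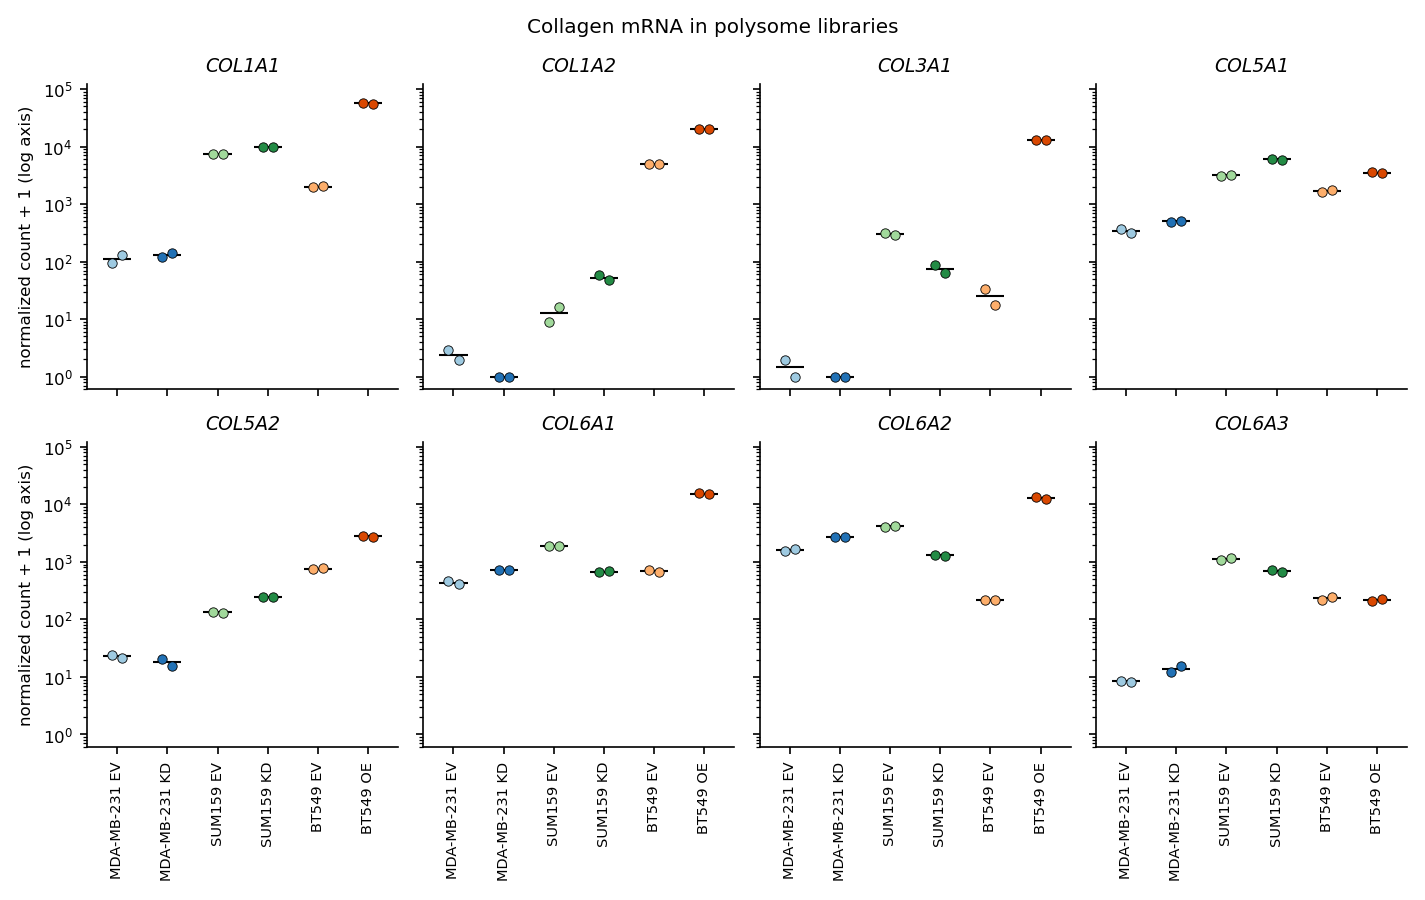
Normalized count plus 1 (log axis) of each collagen gene in the 12 polysome libraries, 1 point a library and a bar at the mean of 2. BT549 OE stands above all other groups for COL1A1, COL1A2, COL3A1, COL5A2, COL6A1 and COL6A2, whereas COL6A3 in BT549 OE (210 and 226) overlaps BT549 EV (219 and 246).

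The comparison of BT549 OE with BT549 EV asked which mRNAs changed in polysomes with more TRMT112. Of the 8 members, 7 rose and none fell, beside 35.6% of all tested genes called higher and 35.0% lower. The summed level of the members went from 130 and 129 TPM to 1600 and 1580 TPM, and their share of all counts from 0.0395 and 0.0398% to 0.476 and 0.468%. The median log2 fold change was 3.25 over the members and 0.02 over all tested genes.

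COL3A1 showed the largest change of the members. It had 31.8 and 16.6 normalized counts in BT549 EV and 12972 and 13078 in OE, a rise of 9.06 on the log2 scale (SE 0.10, adjusted p = 2.22e-26). The EV value rests on 29 and 15 counts, and sets the precision of the fold of 535. COL1A1 had 2016 and 2023 normalized counts in EV and 57265 and 55212 in OE (log2 fold change 4.80, SE 0.04, adjusted p = 2.49e-29). COL1A2 started from a higher level and rose less, from 4965 and 4885 to 20416 and 19886 (2.03, SE 0.04, adjusted p = 1.29e-22). The type V chains rose least: COL5A1 from 1654 and 1763 to 3589 and 3484 (1.05, SE 0.05, adjusted p = 1.74e-15), and COL5A2 from 737 and 793 to 2859 and 2687 (1.86, SE 0.06, adjusted p = 1.22e-17). In none of these 5 genes did the EV and OE libraries overlap. With 2 libraries a group this is easily met, and the share of all tested genes without overlap is not given here.

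The type VI chains did not move together. COL6A1 rose from 708 and 679 normalized counts to 15658 and 14870 (log2 fold change 4.46, SE 0.05, adjusted p = 1.04e-27), and COL6A2 from 214 and 219 to 13398 and 12576 (5.91, SE 0.06, adjusted p = 2.95e-28). COL6A3 had 219 and 246 normalized counts in EV and 210 and 226 in OE. Its groups overlapped and the change did not pass the test (−0.09, SE 0.11, adjusted p = 0.489).

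Markers of other cells moved in the same comparison. Of 7 stromal fibroblast markers in the table, 3 were above 3 counts in BT549 EV and all 7 in OE, and their sum went from between 47.1 and 58.7 to between 2291 and 2434 normalized counts. DCN, LUM, MFAP5 and DPT were at 0 in both EV libraries, and MFAP5, a microfibril component, gave 1666 and 1841 of the OE sum. The table lists only transcripts with an estimate above 0 in a BT549 library. These genes thus have rows only through OE, and PI16, also on the list, has none. The count of markers above 3 in OE is therefore partly set by which rows are listed. PDGFRA went from 6.57 and 7.75 to 239 and 268, while FAP went from 35.0 and 42.1 to 64.5 and 65.3. The sum of the markers of mesenchymal-like lines, mostly VIM and AXL, went down, from 68996 and 69112 to between 26034 and 26788. VIM, AXL and ZEB1 fell, while CDH2 did not (means of 1085 in EV and 1153 in OE). The epithelial markers were low throughout (between 189 and 198 in EV, between 67.6 and 75.8 in OE). The 4 haematopoietic markers in the table, in EV mostly CD68, went from between 4175 and 4312 to between 324 and 339, although CORO1A rose (means of 26.5 and 161). DCN and LUM are also in the list of fibril-binding proteins below. The part of these markers in the collagen result was not tested.

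**Figure D2:**
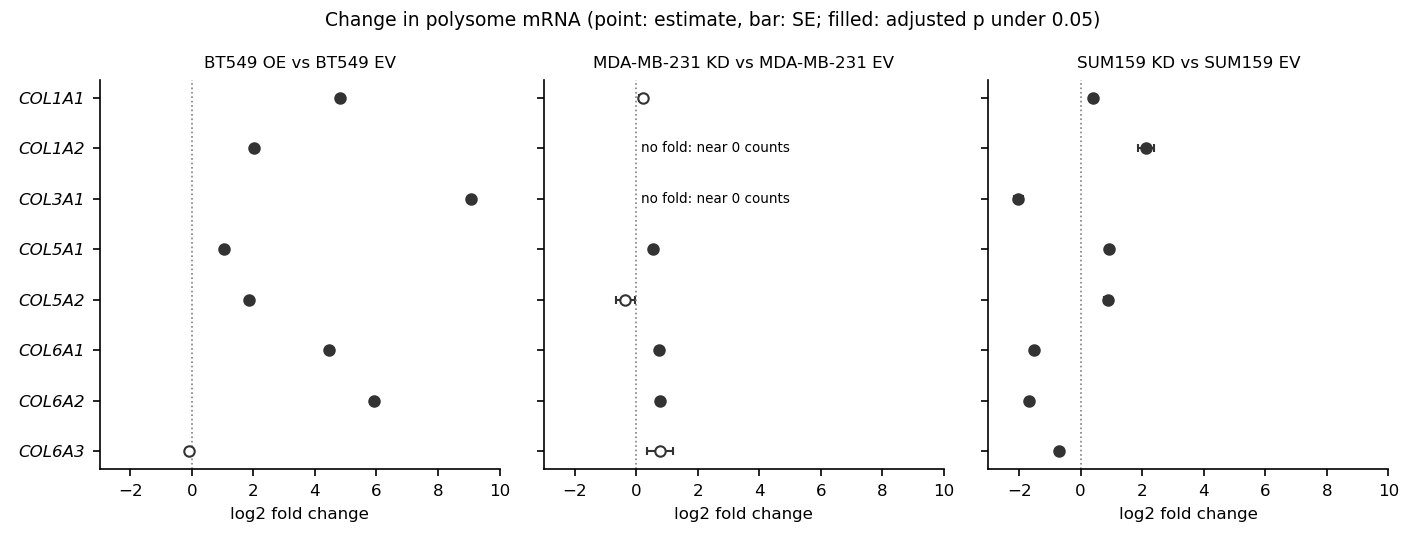
Log2 fold change of each member in the 3 comparisons of TRMT112 level with their standard errors (bars, often smaller than the point), filled where the adjusted p is under 0.05. The type VI chains lie above 0 in MDA-MB-231 KD (0.73, 0.76 and 0.78, the last not past the test) and below 0 in SUM159 KD (−1.50, −1.67 and −0.71).

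In SUM159 KD all 8 members passed the test, 4 higher and 4 lower, beside 28.6 and 31.4% of all tested genes. Type I and V chains rose, and COL3A1 and the 3 type VI chains fell. The summed level went from 287 and 290 TPM to 230 and 229 TPM, with the fibrillar chains at 145 and 143 in EV and 181 and 182 in KD, and the type VI chains at 143 and 148 in EV and 48.7 and 46.8 in KD. Collagen mRNA in these polysomes thus changed more in its makeup than in its amount, and its share of all counts went from 0.0786 and 0.0797% to 0.0803 and 0.0790%.

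Among the fibrillar chains, COL1A1 had 7420 and 7476 normalized counts in SUM159 EV and 9816 and 9686 in KD (log2 fold change 0.39, SE 0.03, adjusted p = 6.93e-10). COL1A2, with 8 and 15 counts in EV and 56 and 54 in KD, rose by 2.13 (SE 0.27, adjusted p = 3.78e-07) but stayed far below COL1A1. COL5A1 rose from 3092 and 3222 normalized counts to 6101 and 5950 (0.93, SE 0.04, adjusted p = 3.84e-15) and COL5A2 from 136 and 126 to 243 and 240 (0.88, SE 0.11, adjusted p = 3.09e-07). The type V chains thus rose by like amounts. COL3A1 fell from 315 and 288 to 87.7 and 62.3 (−2.02, SE 0.14, adjusted p = 1.21e-11), opposite to its neighbour COL5A2.

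The type VI chains all fell in SUM159 KD. COL6A1 went from 1922 and 1913 normalized counts to 675 and 681 (−1.50, SE 0.05, adjusted p = 2.24e-17), COL6A2 from 4085 and 4164 to 1318 and 1277 (−1.67, SE 0.04, adjusted p = 2.08e-19), and COL6A3 from 1088 and 1171 to 718 and 662 (−0.71, SE 0.08, adjusted p = 2.8e-08). COL6A3 counts are spread over 19 annotated transcripts, and the call was lost when its main transcript alone was tested (−0.61, adjusted p = 0.153). The stromal fibroblast markers, of which 4 of 7 were above 3 counts, went from a sum between 364 and 384 to one of 138 and 139 in the same comparison, mostly PDGFRB (232 and 249 in EV, 99.8 and 109 in KD). Sums of other lists went up there: the haematopoietic markers from between 3415 and 3601 to between 9584 and 9818 (mostly LAPTM5), and the endothelial markers, mostly PECAM1, from between 25.2 and 27.1 to between 89.7 and 105. Within the haematopoietic list CD68 (means of 677 in EV and 547 in KD) and CORO1A (24.2 and 9.37) fell, and PTPRC rose from near 0 (1.01 and 9.94). The epithelial sum went from between 9912 and 10310 to between 12859 and 13533, mostly through KRT8 (means of 4927 in EV and 8525 in KD). The list did not rise as a whole: KRT18 (4933 and 4515) and KRT14 (167 and 0) fell. Its genes above 3 counts went from 6 to 4. The part of these markers in the result was not tested.

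In MDA-MB-231 KD, 3 of the 8 members rose and none fell, beside 21.2% of all tested genes called higher and 16.5% lower. COL5A1 had 367 and 313 normalized counts in EV and 491 and 510 in KD (log2 fold change 0.56, SE 0.08, adjusted p = 3.83e-06). COL6A1 had 456 and 410 in EV and 719 and 717 in KD (0.73, SE 0.06, adjusted p = 3.72e-09), and COL6A2 had 1559 and 1646 in EV and 2757 and 2654 in KD (0.76, SE 0.04, adjusted p = 4.17e-12). Each of these changes was smaller than 1 on the log2 scale.

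The other members of MDA-MB-231 were low. COL6A3 had 7.53 and 7.31 normalized counts in EV and 11.2 and 14.5 in KD (0.78, SE 0.42, adjusted p = 0.159), although its main transcript alone was called higher (adjusted p = 0.00316) on at most 15 counts a library. COL5A2 had 23.5 and 20.1 in EV and 19.7 and 14.5 in KD (−0.35, SE 0.30, adjusted p = 0.42). COL1A1 had 95.0 and 129 in EV and 118 and 142 in KD, with overlapping groups (0.21, SE 0.13, adjusted p = 0.218). This result turned on 1 library: without the second EV library the value was 0.45 (adjusted p = 0.024). COL1A2, with 2 and 1 counts in EV, and COL3A1, with 1 and 0, had no count in KD, so that no fold is given. Of the 7 stromal fibroblast markers in the table, only PDGFRB was above 3 counts in MDA-MB-231. It held nearly the whole sum, which was between 223 and 226 in EV and between 562 and 609 in KD. The haematopoietic markers went from between 7503 and 7740 to between 9431 and 9670. The epithelial sum, mostly KRT8 and KRT18, went from between 16098 and 16676 to between 19694 and 20071, while EPCAM was lower in KD (means of 70.9 in EV and 54.2 in KD). The endothelial markers went from between 29.2 and 33.9 to between 94.4 and 113, with CDH5 at 14.6 and 16.9 in EV and 78.0 and 98.4 in KD. The part of these markers in the result was not tested.

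The KD effects of the lines were compared with an interaction term, the log2 fold change in MDA-MB-231 minus that in SUM159. The test called 3 members higher and 3 lower, beside 27.7 and 23.2% of all tested genes. The type VI chains gave positive differences: 2.23 for COL6A1 (SE 0.08, adjusted p = 2.91e-16), 2.43 for COL6A2 (SE 0.06, adjusted p = 4.36e-19) and 1.49 for COL6A3 (SE 0.42, adjusted p = 0.00486). For COL6A1 and COL6A2 the effects had opposite signs, both past the test in each line. The COL6A3 difference rests on low MDA-MB-231 counts and missed the threshold without the second KD library of MDA-MB-231 (1.31, adjusted p = 0.055). The type V chains gave negative differences of −0.37 for COL5A1 (SE 0.09, adjusted p = 0.00108) and −1.23 for COL5A2 (SE 0.32, adjusted p = 0.00246), and neither passed when the main transcript was tested in place of the gene (−0.30, adjusted p = 0.102, and −1.07, adjusted p = 0.0573). COL1A2, the third of the lower calls, had at most 2 counts in any MDA-MB-231 library and its value is not given. COL1A1 was not called (−0.18, SE 0.13, adjusted p = 0.284).

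Ranked over the 6 groups by mean normalized count, COL1A1, COL1A2, COL3A1, COL5A2, COL6A1 and COL6A2 were highest in BT549 OE. COL5A1 was highest in SUM159 KD (6101 and 5950) ahead of BT549 OE (3589 and 3484), and COL6A3 was highest in SUM159 EV. MDA-MB-231 groups held the lowest place for every member except COL6A2, whose lowest group was BT549 EV. Neighbours in this order overlapped for COL1A1 (MDA-MB-231 KD and EV), COL3A1 (the same groups), COL6A1 (BT549 EV and SUM159 KD) and COL6A3 (BT549 EV and OE). In every other pair of neighbours the libraries did not overlap.

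Ratios between chains of the same trimer were taken from TPM, since counts of genes of unlike length cannot be compared. Type I collagen is usually assembled with more COL1A1 than COL1A2 chains. COL1A1 over COL1A2 was 0.394 and 0.407 in BT549 EV, with COL1A2 in excess, and 2.43 and 2.41 in BT549 OE. In SUM159 EV the ratio was 904 and 292, resting on the 8 and 15 counts of COL1A2, and 162 and 173 in KD. It is not given for MDA-MB-231. COL5A1 over COL5A2 was 2.00 and 1.86 in BT549 EV and 1.05 and 1.04 in OE, and between 13.8 and 21.3 in SUM159. The MDA-MB-231 ratios were 4.28 and 4.77 for EV and 17.4 and 29.6 for KD, on at most 25 counts of COL5A2 a library, and with a single length for each gene the EV value was 12.6 on average.

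For type VI collagen, COL6A1 over COL6A2 was 2.80 and 2.55 in BT549 EV and 0.989 in both OE libraries, so that these chains were level in OE. It lay between 0.209 and 0.250 in MDA-MB-231 and between 0.376 and 0.441 in SUM159, below 1 in all 8 of those libraries. COL6A3 over COL6A1 was 0.262 and 0.267 in BT549 EV and 0.0136 and 0.0179 in OE, and 0.490 and 0.640 in SUM159 EV against 0.896 and 0.770 in KD. The level of COL6A3 per length depended on how its short transcripts were weighed: with a single length for the gene these ratios were 0.134 in BT549 EV, 0.00572 in OE, 0.235 in SUM159 EV and 0.406 in KD on average, and their order was kept.

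**Figure D3:**
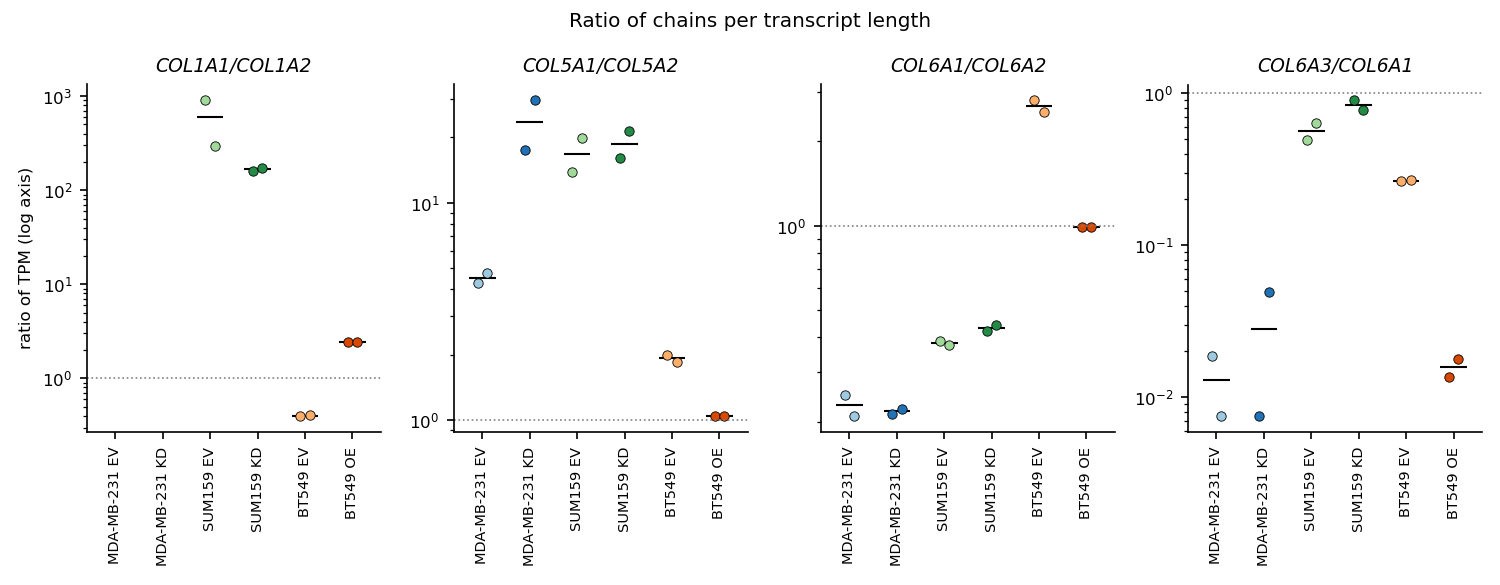
Ratio of TPM between collagen chains in each library (log axes, each panel with its own range, 1 point a library, bar at the mean, dotted line at equal levels). COL1A1/COL1A2 crosses 1 between BT549 EV (0.394 and 0.407) and OE (2.43 and 2.41), and it is left blank in MDA-MB-231, where COL1A2 had at most 2 counts a library.

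A single transcript carried most of the counts of each member other than COL6A3. COL1A1-201 held between 90.6 and 99.9% and COL6A1-201 between 95.5 and 99.8% in the 12 libraries, while the main COL6A3 transcript, COL6A3-208, held between 29.1 and 99.6% in the 10 libraries with more than 10 counts. The use of transcripts within a gene was tested over 23 transcripts of the members, a test chosen after the data were seen. It called 1 of them in BT549, where 2.05% of all 59573 transcripts tested were called, none in MDA-MB-231 (0.215%) and 1 in SUM159 (0.599%). The BT549 call was COL1A1-211, a short transcript whose share of COL1A1 went from 1.39 and 1.5% in EV to 0.0884 and 0.118% in OE (adjusted p = 0.000877).

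The SUM159 call was COL6A2-202. It held 9.87 and 9.43% of the COL6A2 counts in EV and 21.6 and 19.6% in KD (adjusted p = 0.0341), and between 9.83 and 11.9% in MDA-MB-231. The main transcript COL6A2-201 fell by 1.89 on the log2 scale in SUM159 KD (SE 0.05, adjusted p = 4.83e-09), while COL6A2-202 gave −0.59 (SE 0.18, adjusted p = 0.0587), so the fall was larger for COL6A2-201. Both transcripts have 28 exons and share the first 27. The last exon of COL6A2-202 lies at chr21:46129196-46129801 and that of COL6A2-201 at chr21:46131954-46132848 (GRCh38, plus strand), and they encode different carboxy-terminal ends of the chain. The coding part of the COL6A2-202 exon, chr21:46129196-46129488, is shown because it is what separates the 2 messages, all in lower case since nothing in it is singled out.
COL6A2-202 exon 28, coding part: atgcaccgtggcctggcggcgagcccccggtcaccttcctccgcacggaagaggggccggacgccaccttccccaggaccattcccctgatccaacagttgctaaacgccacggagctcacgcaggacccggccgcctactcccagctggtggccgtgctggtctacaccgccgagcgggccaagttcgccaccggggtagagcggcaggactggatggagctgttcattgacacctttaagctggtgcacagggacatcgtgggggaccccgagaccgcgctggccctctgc

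A like pattern in COL5A1 did not pass the test. COL5A1-202 held 6.77 and 7.42% of COL5A1 counts in SUM159 EV and 16.4 and 15.3% in KD (adjusted p = 0.0835), against 4.33 and 6.0% in BT549 EV and 4.79 and 6.58% in OE. In MDA-MB-231 its share, 8.11 and 4.23% before and 13.5 and 7.51% after KD, overlapped between the groups. As a transcript of its own COL5A1-202 rose by 2.08 in SUM159 KD (SE 0.34, adjusted p = 0.00198) and COL5A1-201 by 0.77 (SE 0.07, adjusted p = 2.3e-05). The deposited transcript counts are estimates, and their assignment error was not included in the test.

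**Figure D4:**
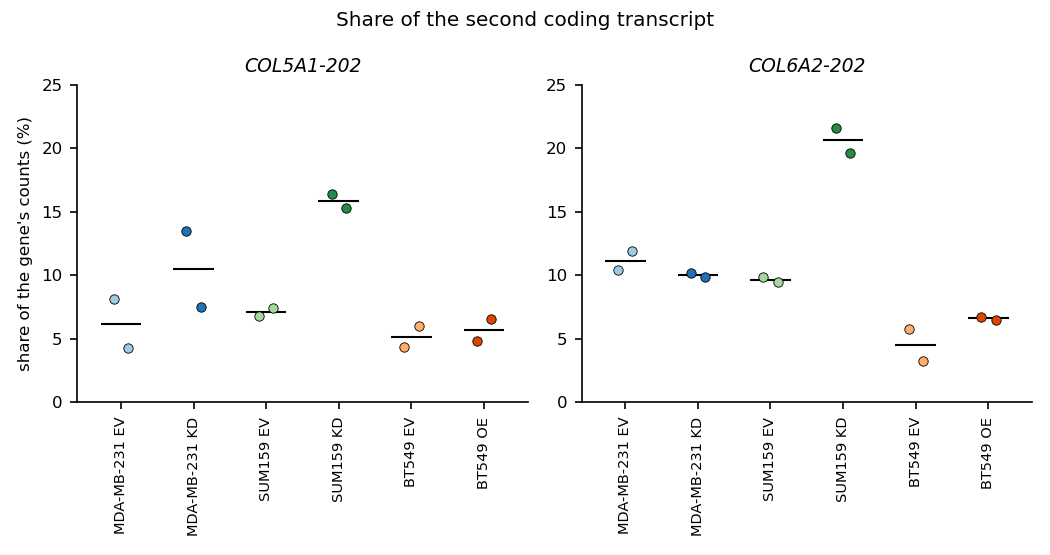
Share of the counts of COL5A1 and COL6A2 carried by their second coding transcripts in each library (1 point a library, bar at the mean, axis from 0 to 25%). The SUM159 KD libraries are the highest in both panels, at 16.4 and 15.3% for COL5A1-202 and 21.6 and 19.6% for COL6A2-202.

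Upstream sequences are shown for COL5A1 and COL6A2, because their gene starts are the same in RefSeq and GENCODE. They were not chosen for their changes. Both genes rose in BT549 OE and in MDA-MB-231 KD and moved in opposite directions in SUM159 KD, and COL6A1 changed in the same directions as COL6A2. RefSeq promoters (GRCh38.p14, from 250 bases before to 50 after the start) were matched for 4 of the 9 members: COL5A1, COL6A2, COL6A3 and COL11A1. The windows were searched on both strands for 3 motifs. The CCAAT box was found in 34.6% of all 35116 promoters. The TATA box motif TATAAA was found in 11.5% and the GC box motif GGGCGG in 45%. The 250 bases upstream of COL5A1 (chr9:134641553-134641802, plus strand) have a GC content of 74.0% and the window holds GGGCGG 2 times, and those of COL6A2 (chr21:46097862-46098111, plus strand) have 79.6% and the window holds GGGCGG 4 times and TATAAA 1 time. Matches on either strand are in capitals.
COL5A1 upstream: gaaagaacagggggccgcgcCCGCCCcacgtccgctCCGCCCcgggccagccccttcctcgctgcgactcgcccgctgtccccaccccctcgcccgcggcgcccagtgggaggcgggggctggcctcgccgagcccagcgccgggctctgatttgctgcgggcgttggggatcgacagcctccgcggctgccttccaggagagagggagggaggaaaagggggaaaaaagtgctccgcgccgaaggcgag
COL6A2 upstream: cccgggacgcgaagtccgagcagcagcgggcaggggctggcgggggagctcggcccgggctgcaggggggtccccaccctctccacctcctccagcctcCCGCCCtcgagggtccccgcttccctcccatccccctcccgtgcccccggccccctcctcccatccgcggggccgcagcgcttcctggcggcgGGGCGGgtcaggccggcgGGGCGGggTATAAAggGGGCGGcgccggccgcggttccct
The COL6A3 window holds none of the 3 motifs and has a GC content of 56.0% upstream of the start. Its RefSeq start lies 164 bases from the GENCODE start, so this window may not cover the same part of the gene. No CCAAT is in the COL5A1, COL6A2 or COL6A3 windows. These matches are descriptions of the windows and no binding was measured.

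Other genes of collagen biosynthesis, taken from role lists of 71 genes of which 59 were tested, are given by role. In BT549 OE 41 were higher and 11 lower (35.6 and 35.0% of all tested genes), in SUM159 KD 27 and 15 (28.6 and 31.4%), and in MDA-MB-231 KD 18 and 7 (21.2 and 16.5%). Genes with no count in BT549 EV, such as LOXL4, ITGA11 and COL5A3, have rows only through OE, and COL19A1 only through EV. Their direction in BT549 was thus set by which rows are listed.

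In the list for chain modification and folding, which does not hold enzymes alone, 15 of 20 genes were higher in BT549 OE and 4 lower. The median log2 fold change was 0.54 against 0.02 over all tested genes. SERPINH1, the collagen chaperone HSP47, had 8895 and 8641 normalized counts in EV and 21512 and 20783 in OE (log2 fold change 1.27, adjusted p = 1.15e-19). PPIB, a prolyl isomerase of the endoplasmic reticulum, rose by 0.91 (adjusted p = 8.38e-18), and P4HA2, a catalytic subunit of prolyl hydroxylase, by 1.47 (adjusted p = 1.9e-17). In SUM159 KD 11 of the 20 were higher and 7 lower: COLGALT1, which adds galactose to hydroxylysine, rose by 0.55 (adjusted p = 1.43e-14), and P4HA3, another prolyl hydroxylase subunit, went from 127 and 111 normalized counts to 365 in both KD libraries (1.62, adjusted p = 2.96e-12). In MDA-MB-231 KD 9 were higher and 5 lower, led by the prolyl 3-hydroxylase family genes P3H3 (0.68, adjusted p = 4.81e-11) and P3H2 (0.56, adjusted p = 7.4e-11). P4HA3 is among those 5 lower calls with 6 counts in EV and none in KD.

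Of the 7 tested genes for propeptide removal, 5 were higher and 1 lower in BT549 OE, with a median of 1.22. ADAMTS2, the proteinase that removes the amino-terminal propeptide of fibrillar collagens, had 14.2 and 16.6 normalized counts in EV and 761 and 790 in OE (log2 fold change 5.64, SE 0.15, adjusted p = 2.89e-19). BMP1, which removes the carboxy-terminal propeptide, rose by 1.22 (adjusted p = 1.54e-15), and PCOLCE2, its enhancer, by 0.73 (adjusted p = 9.08e-12). In SUM159 KD 5 of 7 were higher and none lower, with ADAMTS2 at 2057 and 2071 in EV and 6102 and 5811 in KD (1.53, adjusted p = 2.04e-17) and BMP1 at 0.68 (adjusted p = 9.36e-11). In MDA-MB-231 KD BMP1 rose by 0.42 (adjusted p = 0.00052), and PCOLCE2 did not pass (−0.33, adjusted p = 0.0511).

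All 5 lysyl oxidase genes were higher in BT549 OE, although LOXL4, with no count in EV and 10 in OE, has rows only through OE. Their median was 5.52, or 2.35 with the lysyl oxidases that were near 0 in EV placed at the lowest fold compatible with 3 counts over the EV libraries. LOX had 1496 and 1485 normalized counts in EV and 7665 and 7481 in OE (log2 fold change 2.35, SE 0.05, adjusted p = 1.83e-22), and LOXL1 had 35.0 and 31.0 in EV and 1780 and 1630 in OE (5.68, SE 0.12, adjusted p = 1.48e-21). LOXL2 rose by 0.66 (adjusted p = 1.48e-15). LOXL3 had 2 counts in EV and 157 in OE, a ratio of 79.8 with a counting interval from 21.7 to 665. LOXL1 also rose in SUM159 KD, from 3832 and 3520 to 14902 and 13602 (1.95, adjusted p = 3.01e-20), where 3 of 5 were higher and none lower, LOXL2 by 0.30 (adjusted p = 9.9e-08). In MDA-MB-231 KD 3 were higher and 1 lower, with LOX at 0.49 (adjusted p = 8.45e-06) and LOXL1 at 0.48 (adjusted p = 1.55e-05).

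Of the fibril-binding proteins tested, 4 of 5 were higher and 1 lower in BT549 OE, and of the fibril-associated collagens 4 of 7 were higher and 1 lower. These were the genes tested out of 9 and 10 listed. DCN and LUM, among the higher calls, had no count in BT549 EV and so have rows only through OE. SPARC, which binds collagen and assists its deposition, had 11790 and 11816 normalized counts in EV and 45668 and 45115 in OE (log2 fold change 1.94, SE 0.03, adjusted p = 5.53e-24). It also rose in MDA-MB-231 KD, from 223 and 185 to 891 and 985 (2.20, adjusted p = 2.11e-16), and by 0.36 in SUM159 KD (adjusted p = 3.25e-10). DCN, a small proteoglycan that coats fibrils, had no count in BT549 EV and 332 in OE and was at least 113-fold higher, taking 3 counts over the EV group as the limit. FN1, fibronectin, differed from the others in BT549, with −0.96 in BT549 OE (adjusted p = 2.66e-14), 1.49 in SUM159 KD (adjusted p = 7.29e-20) and 0.38 in MDA-MB-231 KD (adjusted p = 1.56e-05). The fibril-associated COL12A1 went from 437 and 430 to 4010 and 3749 in BT549 OE (3.16, adjusted p = 2.8e-22), rose by 0.65 in SUM159 KD (adjusted p = 2.65e-09) and changed by −0.70 in MDA-MB-231 KD (adjusted p = 3.75e-06). COL14A1 rose by 3.73 in BT549 OE (adjusted p = 1.09e-10), had 15 counts in SUM159 EV and 2 in KD, and had at most 2 counts in each MDA-MB-231 library. COL19A1, with 90 counts in BT549 EV and none in OE, was at least 29.5-fold lower.

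Of the other fibrillar and type VI chains, 4 of 7 were tested. COL5A3, the third type V chain, had no count in BT549 EV and 172 in OE (at least 58.3-fold higher), went from 327 and 366 normalized counts in SUM159 EV to 53.4 and 53.6 in KD (−2.69, SE 0.20, adjusted p = 1.97e-10), and had no count in MDA-MB-231. It thus fell in SUM159 KD while COL5A1 and COL5A2 rose. With no count in BT549 EV, COL5A3 has rows only through BT549 OE. COL27A1 fell by 0.88 in SUM159 KD (adjusted p = 4.69e-07), and gave −0.28 in BT549 OE (adjusted p = 0.11) and 0.05 in MDA-MB-231 KD (adjusted p = 0.797). COL24A1 fell by 1.85 in BT549 OE (adjusted p = 0.0126) from 39.4 and 37.6 normalized counts. COL11A2 had 2 counts in BT549 EV and 23 in OE, a ratio of 11.7 (counting interval 2.89 to 102), and did not pass in the KD lines (adjusted p = 0.723 in MDA-MB-231 and 0.0602 in SUM159).

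The collagen receptors were split, with 6 of 11 higher and 3 lower in BT549 OE, 4 and 4 in SUM159 KD, and 3 and none in MDA-MB-231 KD. ITGA11, an integrin subunit that binds type I collagen, had no count in BT549 EV and 3230 in OE, at least 1090-fold higher. It thus has rows only through OE. MRC2, an endocytic collagen receptor, rose by 1.96 in BT549 OE (adjusted p = 4.66e-19) and 0.47 in MDA-MB-231 KD (adjusted p = 3.81e-07), and ANTXR2, a receptor that binds type VI collagen, changed by −0.99 in BT549 OE (adjusted p = 2e-14). ITGA2, the collagen-binding integrin subunit of epithelial cells, went from 811 and 780 normalized counts in SUM159 EV to 84.7 and 90.8 in KD (−3.18, SE 0.12, adjusted p = 1.49e-16). CSPG4, a membrane proteoglycan that binds type VI collagen, rose by 1.68 there (adjusted p = 5.43e-10) while the type VI chains fell. The ubiquitous integrin subunit ITGB1 rose by 0.29 in MDA-MB-231 KD (adjusted p = 1.66e-08).

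**Figure D5:**
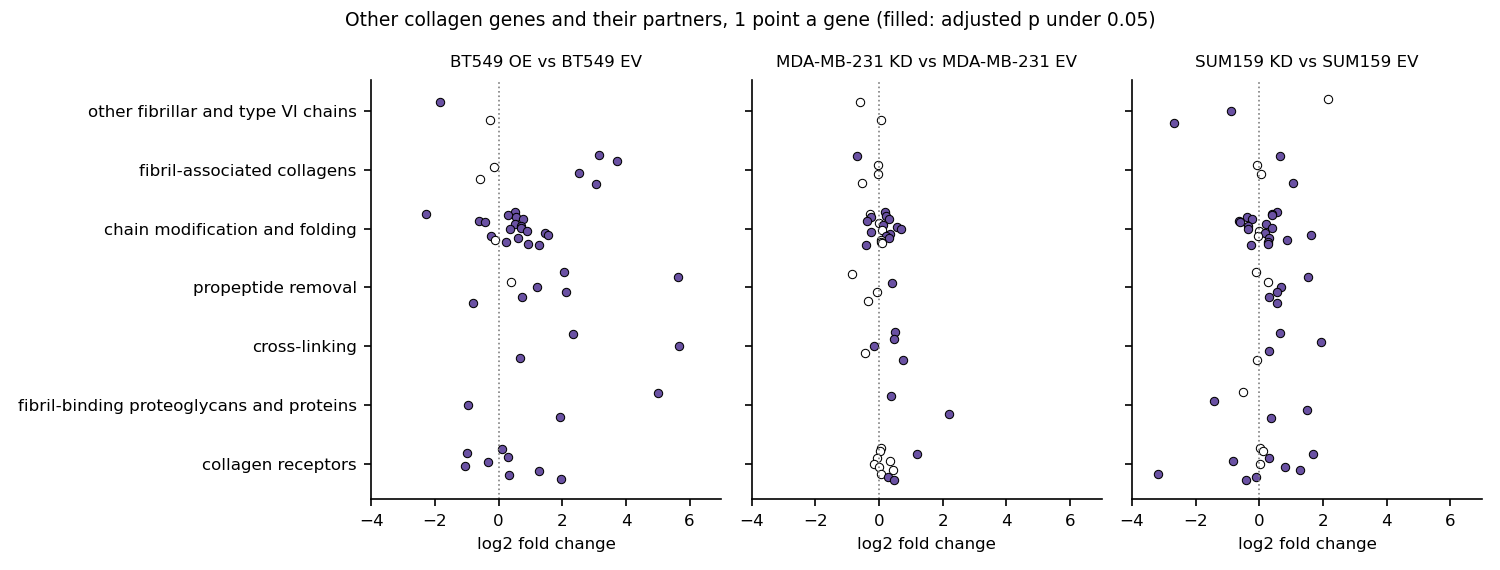
Log2 fold change of the tested genes of 7 role lists in the 3 comparisons, 1 point a gene, filled where the adjusted p is under 0.05; genes near 0 in a group (no library over 3 counts) are not drawn. In BT549 OE the points reach 5.68 (LOXL1), and in MDA-MB-231 KD they stay between −1 and 2.20 (SPARC).

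The genes whose log2 levels over the 12 libraries were most like those of a member were found by Pearson correlation over the 12590 tested genes that averaged 50 counts or more, as a description of 12 libraries from 3 lines. For COL1A1 they were SUB1 and POP1 (r = 0.997 each), MRTO4 (0.994), ABHD2 (0.993) and NOP16 (0.992). For COL5A1 they were SRSF3 (0.995), CD99 (0.994), RPL17, PDCD10 and SLC2A4RG (0.992 each), and for COL6A3 they were CYCS (0.997), TSHZ1 (0.994), MAP2 and FUOM (0.990 each) and RPL34 (0.987). The libraries of a line share their cells and the libraries of a group lie close together, so these are not 12 independent points. None of the genes named here is another collagen or a gene of the role lists.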

How the data were processed

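The members and the gene lists were chosen with earlier results of these data known. According to the methods, the authors trimmed reads (Trimmomatic), aligned them to GRCh38 (HISAT2), removed duplicates (SAMtools) and used Partek. Expected counts of Ensembl transcripts, without normalization, were deposited; the counting tool, annotation and strand setting are not given in the sources used here, so overlapping antisense reads cannot be told apart. The library kit is given as rRNA-depleted and stranded in the methods and as poly(A)-enriched in the labels. In the MDA-MB-231 and SUM159 columns deposited by the authors, 5.08% of the rows hold question marks, taken as 0, and those columns are otherwise expected counts. Among the members, such marks occur in 3 of 11 transcripts of COL1A2, 3 of 19 of COL6A3 and 1 of 8 of COL1A1. Each listed transcript has an estimate above 0, in some cases far below a single count, in at least 1 of the 4 BT549 libraries, so a transcript estimated at 0 in BT549 has no row.

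Transcripts were matched without version to GENCODE 44 (79.6% of rows), summed to 24559 symbols and rounded. Genes were tested with edgeR 4.0.16 (R 4.3.3): filterByExpr, TMM, a quasi-likelihood fit of 6 group means on 12 libraries (6 residual degrees of freedom, common dispersion 0.000835), and Benjamini-Hochberg adjustment over 16538 genes with a threshold of 0.05. The fit was tested on simulated data. Alternatives were DESeq2 1.42.0, other size factors, filters, sample sets and counting units, a replicate block and leaving out each library. A group in which no library exceeded 3 counts was taken as at the counting limit: folds against it are bounds from 3 counts over the group, or ratios with exact 95% intervals, which cover counting error only. TPM was computed from counts and annotated transcript lengths. Transcript usage was tested with diffSpliceDGE. The genes named are all members, TRMT112, the 3 smallest p-values of each role list in BT549 and the 2 smallest in each KD comparison, all tested genes of the other fibrillar and type VI chains, and the 5 genes most like COL1A1, COL5A1 and COL6A3. LOXL3 and the single marker genes with values were named after their values were seen. Protein sequence features were not analysed here, and some sequences are not reported here.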

Additional observations from a re-analysis of the deposited data

Results flagged for a closer look

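The effect of TRMT112 KD differed between MDA-MB-231 and SUM159 for 5 members with counts in both lines, by the interaction term of the model. The test also called COL1A2 (adjusted p = 0.00741), whose value is not given because no MDA-MB-231 library had more than 2 counts of it. The difference (MDA-MB-231 minus SUM159, log2) was 2.23 for COL6A1, from 0.73 and −1.50, and 2.43 for COL6A2, from 0.76 and −1.67. It was 1.49 for COL6A3, from 0.78, which did not pass the test, and −0.71. For the type V chains it was −0.37 for COL5A1, from 0.56 and 0.93, and −1.23 for COL5A2, from −0.35, which did not pass, and 0.88.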

How the results depend on the processing

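Of 696 single-gene fold changes recomputed under the alternatives, 677 kept their direction and side of the threshold, 14 fell short of it, 3 passed it and 2 reversed, and 201 of 204 counts of members stayed within 1.5 times. COL6A3 in BT549 OE reversed with the main transcript alone (0.26), and COL1A1 in the KD difference reversed without the second MDA-MB-231 EV library (0.07, range −0.38 to 0.07 over single libraries left out, with −0.38 and adjusted p = 0.0321 without the first). When calls also needed a log2 fold change of 1 or more, no member was called higher in MDA-MB-231 KD (0) and 1 was in SUM159 KD. With the main transcript, 0 members were lower in the KD difference. With a single length per gene the chain ratios were 0.352 in BT549 EV and 2.39 in OE for COL1A1/COL1A2, 0.963 in BT549 OE for COL6A1/COL6A2, 0.235 and 0.406 in SUM159 EV and KD and 0.134 and 0.00572 in BT549 EV and OE for COL6A3/COL6A1, and 12.6 in MDA-MB-231 EV, 1.81 in BT549 EV and 1.03 in BT549 OE for COL5A1/COL5A2. The cause of these shifts was not tested.

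The replicate numbers of the labels gave no sign of a pairing: same-numbered libraries had correlations of deviations between −0.03 and 0.037 over all tested genes. With genes of low count included, such values cannot show whether same-numbered libraries were prepared together. With the replicate block 7 members were higher in BT549 OE and 3 in MDA-MB-231 KD, the same counts as without it. At these depths a gene at 0 counts may hold up to 3, which limits COL1A2 and COL3A1 in MDA-MB-231.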
